A study of Xenopus laevis with 12 samples.

Results

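The Hes, Hey and Esr genes encode a family of transcriptional repressors, many of them targets of Notch signalling, and their RNA was followed across 4 tissues of the *Xenopus laevis* embryo. The members were chosen by gene symbol: every probe set with a single symbol of the form *hes*, *hey* or *esr-* followed by a number, together with *nrarp*. This gave 27 probe sets for 17 gene copies and 14 genes, out of 15491 probe sets tested and 6504 genes with a symbol. *X. laevis* carries duplicated chromosomes, and its gene copies are marked .L and .S. Each of the 27 symbols matched the same symbol in the RefSeq gene table of assembly v10.1. The table lists 40 gene copies of the family, and 23 of them had no member probe set, so the family was sampled only in part. *hes1*, *hes7.1*, *hes7.2* and *esr-5* (7 probe sets) were named with the family because their levels in these 4 tissues were already known. For these genes the values are a description, no p-value is given, and their part in the counts of calls is not a test.

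The study set the eye field (EF, labelled eye primordia, dissected with the mesendoderm beneath it), the posterior neural plate (PNP) and the lateral endoderm of the flank (LE) against whole embryos (labelled whole embryo), all from untreated stage 15 embryos. Each tissue was measured on 3 Affymetrix arrays, 12 in all. Each region array held RNA pooled from many dissected pieces, and the triplicates came from embryos of different days and different females. No strain or genotype was given in the labels. Values are log2 of the deposited signal. As background served the highest of 27 bacterial control probe sets on each array, a ceiling of 2.10 to 2.77 on the log2 scale (the grey band in the plots). Where a tissue was above its ceiling on only some arrays or on none, a fold written as at least N was computed with each signal of the lower tissue that was below the ceiling raised to it.

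Hes proteins are basic helix-loop-helix repressors related to the fly Hairy and Enhancer of split proteins. When a Delta or Jagged ligand on 1 cell engages Notch on its neighbour, the receptor is cleaved, and its inner part joins the DNA-binding protein RBPJ to switch on *hes*, *hey* and *nrarp* genes. The Hes proteins then recruit Groucho/TLE corepressors and hold down proneural genes, which keeps neural progenitors undifferentiated. In the presomitic mesoderm of vertebrates, members of the family act in the segmentation clock, and some family members are also expressed without Notch as prepattern genes.

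The arrays of each group correlated at 0.976 to 0.992 over all probe sets, and 61.1% to 82.0% of probe sets lay above the ceiling on an array. A spiked hybridisation control (BioB) read 515 on PNP replicate 3 and 533 on LE replicate 3, against 216 to 395 on the other 10 arrays, so results that involve PNP or LE were also computed without these 2 arrays. The ratio of 5′ to 3′ actin signal, a measure of RNA integrity, was 0.182 to 0.625 on EF and LE arrays, 0.571 to 1.44 on PNP arrays and 0.573 to 1.84 on whole-embryo arrays. The 6 eye field markers summed to 929 to 1329 in EF and to 220 to 402 in whole embryos, and the 6 markers of posterior neural plate and tailbud to 664 to 750 in PNP and 173 to 301 in whole embryos. The PNP pieces also held muscle (4 markers, 1228 to 1399 in PNP, 640 to 956 in whole embryos) and notochord markers (5 markers, 1550 to 1966 in PNP, 352 to 440 in whole embryos), and the LE pieces held epidermal markers (5 markers, 4400 to 5376 in LE, 4060 to 4574 in whole embryos) beside those of endoderm (7 markers, 624 to 704 in LE, 538 to 713 in whole embryos). The EF pieces also held notochord and organizer markers (5 markers, 415 to 477 in EF). They held neural crest markers as well (4 markers, 126 to 167 in EF, 73.3 to 112 in whole embryos). The cement gland marker read 379 to 505 in EF and 443 to 641 in whole embryos. In such pieces, fewer cells of a type and less RNA per cell cannot be told apart.

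The 4 genes named with the family divided into those highest in EF and those highest in PNP. *hes1* and *hes7.1* had their highest mean in EF and their lowest in PNP, where *hes7.1* overlapped with LE. *hes7.2* and *esr-5* had their highest mean in PNP and their lowest in EF, and in LE they lay between EF and whole embryos. The largest span of group means among all 27 member probe sets was that of *hes7.1*, 6.46 on the log2 scale.

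**Figure D1:**
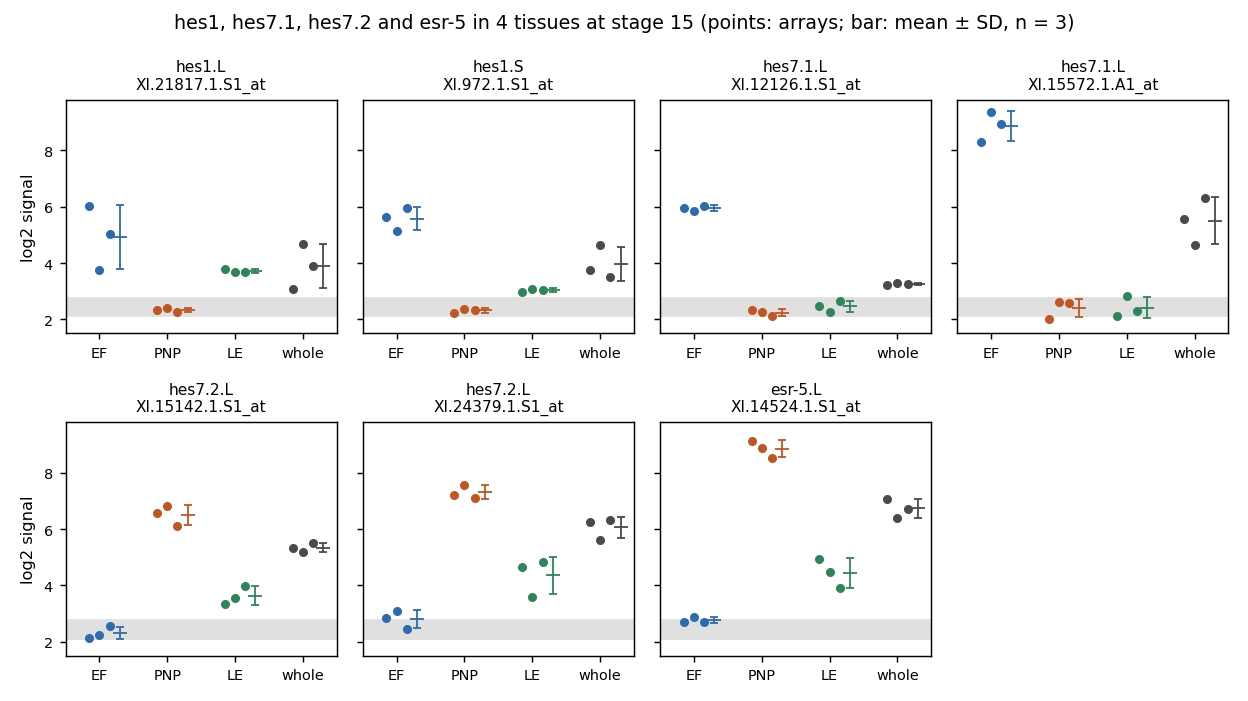
log2 signal (vertical axis) of the 7 probe sets of *hes1*, *hes7.1*, *hes7.2* and *esr-5* in EF, PNP, LE and whole embryos (“whole” on the horizontal axis), with 1 point per array, bars for mean ± SD (n = 3) and the background ceiling in grey. The *hes7.1* and *hes1* points are highest in EF, with overlap of EF and the other tissues only for *hes1.L*, and the *hes7.2* and *esr-5* points are highest in PNP on every array.

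*hes7.1* is the frog gene also known as XHR1, described in *Xenopus* as an early prepattern gene of the midbrain-hindbrain boundary. The probe set Xl.15572.1.A1_at of *hes7.1.L* read 8.31, 9.37 and 8.93 on the EF arrays, 2.03, 2.62 and 2.57 on the PNP arrays, 2.12, 2.84 and 2.28 on the LE arrays, and 5.56, 4.63 and 6.32 on the whole-embryo arrays. Every EF array lay above every array of the other tissues, and PNP and LE lay within the range of the background ceiling or just above it. EF exceeded whole embryos by 3.37 ± 0.38 (log2 difference ± SE), a 10.3-fold higher level. In PNP and in LE only 1 of 3 arrays was above its ceiling, so the folds there are bounds: EF was at least 79.7-fold higher than PNP and at least 82.7-fold higher than LE, with measured differences of 6.46 ± 0.38 in both.

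The second *hes7.1.L* probe set, Xl.12126.1.S1_at, read 5.95, 5.85 and 6.04 on the EF arrays, 2.33, 2.27 and 2.12 on the PNP arrays, 2.47, 2.25 and 2.65 on the LE arrays, and 3.24, 3.30 and 3.27 on the whole-embryo arrays. It gave the same order of EF over whole embryos over the other regions, with smaller folds: 6.40-fold for EF over whole embryos, at least 10.7-fold for EF over PNP (1 of 3 PNP arrays above the ceiling) and at least 11.1-fold for EF over LE (2 of 3 LE arrays). PNP was lower than whole embryos by at least 7.73-fold with the first probe set and at least 1.67-fold with the second, and LE by at least 8.02-fold and 1.73-fold. PNP and LE overlapped with both probe sets, and their differences were -0.01 ± 0.38 and -0.22 ± 0.13. Neither is far from the background ceiling, so the 2 tissues have no settled order for this gene.

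*hes1*, the homologue of fly *hairy*, is the family member that keeps neural and many other progenitors undifferentiated in vertebrates. *hes1.S* (Xl.972.1.S1_at) read 5.64, 5.15 and 5.94 on the EF arrays, 2.23, 2.38 and 2.35 on the PNP arrays, 2.96, 3.09 and 3.05 on the LE arrays, and 3.77, 4.63 and 3.50 on the whole-embryo arrays. The tissues followed the order EF, whole embryos, LE, PNP, and no 2 groups overlapped. EF was 3.06-fold higher than whole embryos (1.61 ± 0.26) and 5.83-fold higher than LE (2.54 ± 0.26). No PNP array was above the background ceiling, so its folds are bounds against that ceiling: *hes1.S* was at least 8.41-fold higher in EF relative to PNP and at least 2.75-fold lower in PNP relative to whole embryos. LE was 1.91-fold lower than whole embryos, a log2 difference of -0.93 that was -0.60 without whole-embryo replicate 2. LE and PNP are the closest neighbours in this order, and PNP was lower than LE by at least 1.44-fold.

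The *hes1.L* copy (Xl.21817.1.S1_at) read 6.01, 3.75 and 5.01 on the EF arrays, 2.34, 2.41 and 2.26 on the PNP arrays, 3.80, 3.68 and 3.69 on the LE arrays, and 3.09, 4.69 and 3.90 on the whole-embryo arrays. EF had the highest mean, but EF replicate 2 fell among the LE and whole-embryo arrays, and EF overlapped both. The difference of EF and whole embryos was 1.03 ± 0.47, and without EF replicate 2 it was 1.62. EF and LE differed by 1.20 ± 0.47, and by 1.79 without that array. PNP lay below all arrays of the other tissues, and 1 of its 3 arrays was above the ceiling. EF was at least 5.25-fold higher than PNP, and PNP at least 2.57-fold lower than whole embryos and at least 2.28-fold lower than LE. LE and whole embryos overlapped (-0.17 ± 0.47). The *L* and *S* copies shared PNP as the lowest tissue.

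*esr-5* is an Enhancer of split relative known in *Xenopus* for its expression in the presomitic mesoderm under Notch control. *esr-5.L* (Xl.14524.1.S1_at) read 2.71, 2.89 and 2.69 on the EF arrays, 9.13, 8.89 and 8.53 on the PNP arrays, 4.95, 4.46 and 3.91 on the LE arrays, and 7.08, 6.39 and 6.72 on the whole-embryo arrays. No 2 tissues overlapped, and the order was PNP, whole embryos, LE, EF. PNP was 4.35-fold higher than whole embryos (2.12 ± 0.25) and 21.3-fold higher than LE (4.41 ± 0.25). EF was 15.7-fold lower than whole embryos, 68.1-fold lower than PNP (-6.09 ± 0.25) and 3.20-fold lower than LE. All 3 EF arrays were above their ceiling, but their signals lay within or just above its range of 2.10 to 2.77. These folds therefore depend on the background.

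*hes7.2* is a relative of *Hes7*, the oscillating repressor of the mouse segmentation clock. *hes7.2.L* was read by 2 probe sets. Xl.24379.1.S1_at read 2.86, 3.10 and 2.45 on the EF arrays, 7.22, 7.58 and 7.11 on the PNP arrays, 4.65, 3.60 and 4.83 on the LE arrays, and 6.25, 5.62 and 6.31 on the whole-embryo arrays. Xl.15142.1.S1_at read 2.13, 2.23 and 2.54 on the EF arrays, 6.56, 6.83 and 6.11 on the PNP arrays, 3.33, 3.57 and 4.0 on the LE arrays, and 5.34, 5.19 and 5.49 on the whole-embryo arrays. Both gave the order PNP, whole embryos, LE, EF without overlap, the same order as *esr-5*.

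By the first *hes7.2* probe set, PNP was 2.36-fold higher than whole embryos and 7.70-fold higher than LE, and EF, with 2 of 3 arrays above the ceiling, was at least 22.0-fold lower than PNP (-4.50 ± 0.30) and at least 9.31-fold lower than whole embryos. By the second, PNP was 2.24-fold higher than whole embryos and 7.31-fold higher than LE. Its EF arrays were all at or below the ceiling, so EF was at least 16.8-fold lower than PNP and at least 7.51-fold lower than whole embryos. LE was lower than whole embryos by 3.26-fold and 3.27-fold, and EF was lower than LE by at least 2.86-fold and at least 2.30-fold.

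Without PNP replicate 3 and LE replicate 3, every difference of these 7 probe sets kept its sign. That of *hes7.2* between PNP and LE was then 3.28 and 3.25, against 2.94 and 2.87 with all arrays, and that of *esr-5* between EF and PNP was -6.25.

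The genes *esr-5*, *hes7.2* and *hes7.1* are neighbours. In the gene order of assembly v10.1, chromosome 3L carries *esr-5.L*, *hes7.2.L* and *hes7.1.L* one after another, with 7 tRNA genes between the first and the second, 3 between the second and the third, and 0 protein-coding genes between any of them. Along this stretch, *esr-5* and *hes7.2* were highest in PNP and lowest in EF, whereas *hes7.1* was highest in EF and at the background in PNP.

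The summed signal of the presomitic markers, like *esr-5* and *hes7.2*, was highest in PNP and lowest in EF. Unlike them, the sum was not lower in LE than in whole embryos. It is a sum of linear signals and follows its brightest genes. Of its 4 markers, *tbx6* and *msgn1* were lower in LE than in whole embryos, and *pcdh8.2* and *mespa* were higher. *pcdh8.2* was the brightest of the 4 in each tissue. The 4 presomitic markers summed to 108 to 124 (EF), 784 to 1028 (PNP), 516 to 601 (LE) and 427 to 509 (whole embryos), with 2 of the 4 not above the ceiling on any EF array. *tbx6*, a T-box gene of the presomitic mesoderm, averaged 2.49 (EF), 7.90 (PNP), 4.39 (LE) and 6.63 (whole embryos). *msgn1*, a basic helix-loop-helix gene of the same tissue, averaged 2.01 (EF), 7.79 (PNP), 5.29 (LE) and 6.0 (whole embryos). Of the 10 measured genes on a wider presomitic list, the test called 6 up and 2 down for PNP against whole embryos. It called 5 up and 3 down for PNP against LE, and 2 up and 6 down for EF against PNP. Over all probe sets tested, the shares up and down were, in that order, 10.2% and 12.1%, 13.0% and 12.6%, and 13.8% and 9.73%. Among those lower in PNP, *ripply2.2.S*, a somite boundary gene, averaged 6.50 (EF), 3.34 (PNP), 7.44 (LE) and 7.31 (whole embryos). For LE against whole embryos, the test called 2 of the 10 listed genes up and 4 down, with 3.23% and 5.40% of all probe sets tested. Presomitic genes thus went both ways in LE. The part of mesoderm in the PNP pieces in the levels of *esr-5* and *hes7.2* was not tested.

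The genes most like each of the 4 were looked for over all 12 arrays, by the root mean square (RMS) difference of log2 signals after each probe set was centred on its own mean. Closest to *esr-5.L* were *tbx6.L* (RMS difference 0.408), the posterior Hox gene *hoxc6.S* (0.507) and *tbx6r.L* (0.683), where the median over all candidate probe sets was 2.36. Closest to *hes7.2.L* were *cdx4.L*, a caudal homeobox gene of the tailbud (0.495), *tbx6.L* (0.518) and *rbm24.L*, an RNA-binding protein gene of muscle (0.537), with a median of 1.78. The second probe set of *hes7.2.L* itself stood at 0.379. *tbx6.L* was thus on both lists.

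Closest to *hes7.1.L* were 3 anterior neural genes, *fezf2.L* of the forebrain (0.921), *otx2.L* of the anterior neural plate (0.994) and the eye field gene *rax.L* (1.00), with a median of 2.72. The second *hes7.1.L* probe set was less like the first, at 1.38. Closest to *hes1.S* were *sh2d3c.L*, a signalling adaptor (0.346), the Wnt receptor *fzd3.L* (0.354) and *gli3.L*, a transcription factor of Hedgehog signalling (0.389), with a median of 1.29 and with *hes1.L* at 0.649. In each case the likeness includes differences between single arrays of 1 tissue.

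Of the other 20 member probe sets, 10 had group means that spanned at least 1 on the log2 scale. The narrowest of these spans was 1.08 (a *hes4.S* probe set), and the widest of those left below the limit was 0.63 (another *hes4.S* probe set). The 10 belong to *hes4* and to the *hes5* cluster. Adjusted p-values are from limma over all probe sets tested.

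**Figure D2:**
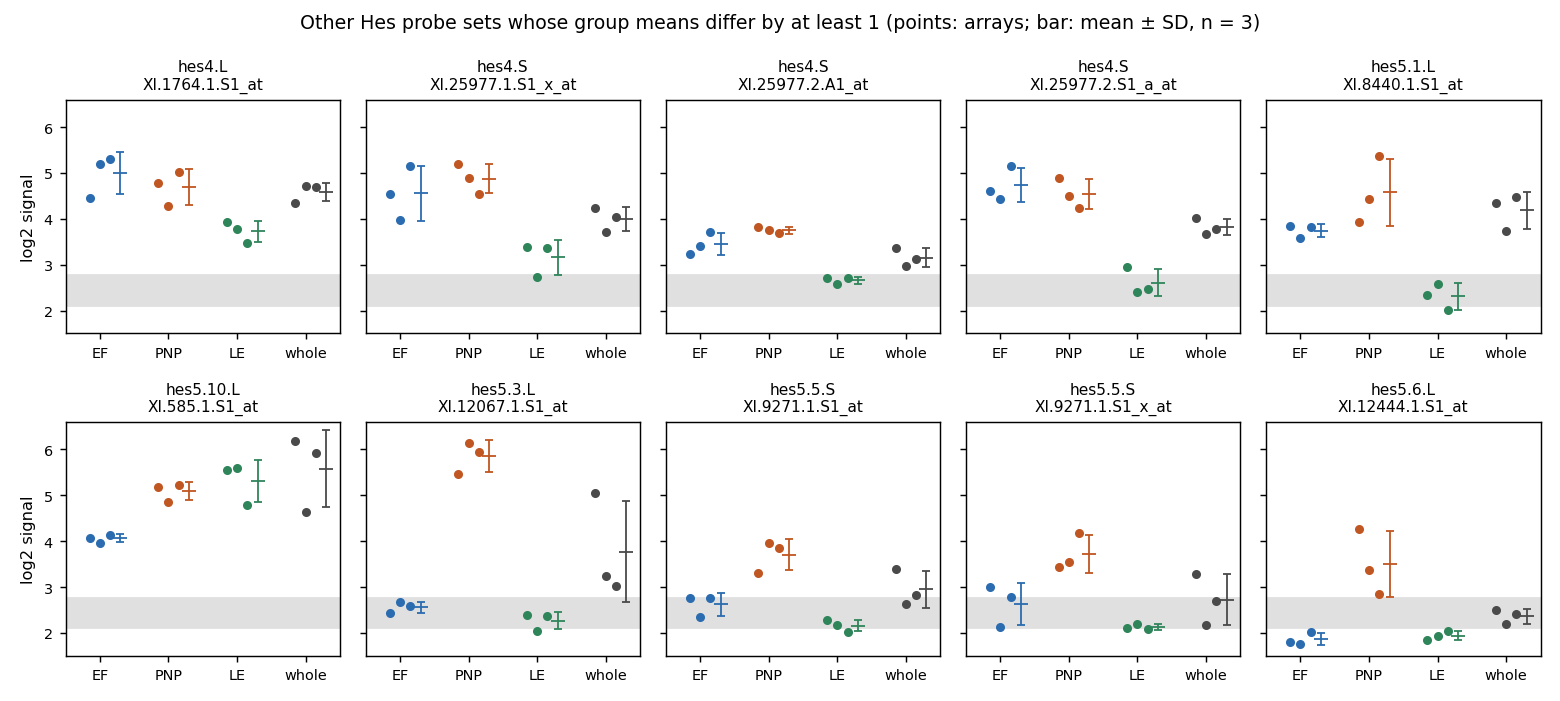
log2 signal (vertical axis) of the 10 other Hes probe sets with group means at least 1 apart, in EF, PNP, LE and whole embryos (“whole” on the horizontal axis), with 1 point per array, bars for mean ± SD (n = 3) and the background ceiling in grey. *hes4* is lowest in LE, *hes5.3*, *hes5.5* and *hes5.6* are highest in PNP, and *hes5.10* is lowest in EF.

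*hes4*, known in *Xenopus* as *hairy2* and for its roles at the neural plate border and floor plate, was lower in LE than in the EF or PNP pieces. *hes4.L* (Xl.1764.1.S1_at) read 4.46, 5.20 and 5.30 on the EF arrays, 4.78, 4.27 and 5.03 on the PNP arrays, 3.93, 3.78 and 3.47 on the LE arrays, and 4.35, 4.71 and 4.68 on the whole-embryo arrays. The LE arrays lay below all others, while EF, PNP and whole embryos overlapped. *hes4.L* was 2.40-fold higher in EF relative to LE (1.26 ± 0.24, adjusted p = 0.0022) and 1.95-fold higher in PNP relative to LE (adjusted p = 0.0113). The PNP call was lost without LE replicate 3 (adjusted p = 0.0509). Without both PNP replicate 3 and LE replicate 3, that difference was 0.67 (adjusted p = 0.131). LE against whole embryos gave -0.86 ± 0.24 and did not pass (adjusted p = 0.050).

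*hes4.S* was read by 5 probe sets, 3 of which may also hybridise with related transcripts. The probe set with the widest span, Xl.25977.2.S1_a_at, read 4.61, 4.44 and 5.16 on the EF arrays, 4.89, 4.50 and 4.24 on the PNP arrays, 2.96, 2.40 and 2.47 on the LE arrays, and 4.02, 3.66 and 3.78 on the whole-embryo arrays. EF and PNP overlapped each other and lay above whole embryos, and whole embryos above LE. It was 4.37-fold higher in EF relative to LE (adjusted p = 1.99e-05), 3.82-fold higher in PNP relative to LE (adjusted p = 3.56e-05) and 2.31-fold lower in LE relative to whole embryos (adjusted p = 0.00584). It was 1.89-fold higher in EF relative to whole embryos (adjusted p = 0.0127, lost without EF replicate 3) and 1.65-fold higher in PNP relative to whole embryos (adjusted p = 0.0365, lost without any of 4 arrays).

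Xl.25977.1.S1_x_at of *hes4.S* read 4.55, 3.97 and 5.15 on the EF arrays, 5.19, 4.88 and 4.55 on the PNP arrays, 3.38, 2.72 and 3.37 on the LE arrays, and 4.24, 3.71 and 4.03 on the whole-embryo arrays. Xl.25977.2.A1_at read 3.23, 3.41 and 3.70 on the EF arrays, 3.82, 3.75 and 3.68 on the PNP arrays, 2.70, 2.57 and 2.71 on the LE arrays, and 3.37, 2.97 and 3.12 on the whole-embryo arrays. Both had all LE arrays below all others. They were higher in EF relative to LE by 2.64-fold (adjusted p = 0.00331) and 1.72-fold (adjusted p = 0.00174), and in PNP than in LE by 3.28-fold (adjusted p = 0.000727) and 2.12-fold (adjusted p = 0.000135). In PNP against whole embryos they gave 1.84-fold (adjusted p = 0.0464) and 1.51-fold (adjusted p = 0.0119), and the first of these calls was lost without any of 8 arrays, with an adjusted p of up to 0.145, and the second without whole-embryo replicate 2 (adjusted p = 0.0511). No *hes4* probe set passed in EF against PNP.

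The *hes5* genes lie in a cluster on chromosome 7L and again on its S partner. On 7L, *hes5.3* to *hes5.10* follow each other with 0 genes between them, and *hes5.2* and *hes5.1* stand side by side elsewhere on the chromosome. *hes5.1*, known in *Xenopus* as *esr-1* and as a Notch target of the neural plate, was measured by Xl.8440.1.S1_at. *hes5.1.L* read 3.83, 3.58 and 3.82 on the EF arrays, 3.93, 4.42 and 5.37 on the PNP arrays, 2.34, 2.57 and 2.00 on the LE arrays, and 4.34, 3.73 and 4.47 on the whole-embryo arrays. LE lay below every other array, with 2 of its 3 arrays above the ceiling. *hes5.1.L* was at least 2.47-fold higher in EF relative to LE (adjusted p = 0.0047), at least 4.40-fold higher in PNP relative to LE (adjusted p = 0.000152) and at least 3.35-fold lower in LE relative to whole embryos (adjusted p = 0.00287). EF and PNP did not overlap, yet their difference did not pass (-0.83 ± 0.31, adjusted p = 0.0755), and it did without PNP replicate 1 (adjusted p = 0.0169).

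*hes5.3*, *hes5.5* and *hes5.6* were higher in PNP than in either other region. *hes5.3.L* (Xl.12067.1.S1_at) read 2.43, 2.67 and 2.58 on the EF arrays, 5.46, 6.14 and 5.95 on the PNP arrays, 2.39, 2.04 and 2.37 on the LE arrays, and 5.04, 3.25 and 3.03 on the whole-embryo arrays. All PNP arrays lay above all others, and whole-embryo replicate 1 stood well above the other whole-embryo arrays. *hes5.3.L* was 9.77-fold lower in EF relative to PNP (-3.29 ± 0.40, adjusted p = 7.5e-05) and at least 11.2-fold higher in PNP relative to LE, where 1 of 3 arrays was above the ceiling (3.58 ± 0.40, adjusted p = 2.72e-05). PNP was 4.22-fold higher than whole embryos (adjusted p = 0.00277). All 3 EF arrays were above their ceiling but within its range over the arrays, so the 9.77-fold depends on the background.

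Against whole embryos the lower levels of *hes5.3.L* in the other regions were less firm. LE was at least 2.65-fold lower than whole embryos (adjusted p = 0.0392), a call that was lost without any of 7 arrays, with an adjusted p of up to 0.121. EF was lower than whole embryos by 1.21 ± 0.40 and did not pass (adjusted p = 0.0543), but passed without whole-embryo replicate 2 (adjusted p = 0.0389) or whole-embryo replicate 3 (adjusted p = 0.0174). Without whole-embryo replicate 1, the outlying array, the difference was -0.58 for EF (adjusted p = 0.0836) and -0.87 for LE (adjusted p = 0.0275), against -1.21 and -1.50 with all arrays. EF and LE did not differ past the test (0.29 ± 0.40).

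*hes5.6*, known in *Xenopus* as *esr9*, was above the background in PNP and whole embryos only. *hes5.6.L* (Xl.12444.1.S1_at) read 1.81, 1.77 and 2.01 on the EF arrays, 4.27, 3.38 and 2.85 on the PNP arrays, 1.85, 1.94 and 2.04 on the LE arrays, and 2.50, 2.18 and 2.42 on the whole-embryo arrays. All PNP arrays were above all others, and no EF or LE array was above the ceiling. *hes5.6.L* was at least 2.10-fold lower in EF relative to PNP (adjusted p = 0.00072), at least 2.26-fold higher in PNP relative to LE (adjusted p = 0.000872) and 2.20-fold higher in PNP relative to whole embryos (adjusted p = 0.00943). Without PNP replicate 1 the difference of PNP and whole embryos was 0.75, against 1.13 with all arrays.

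*hes5.5.S* was read by 3 probe sets, 1 of which stayed near the background in every tissue. Xl.9271.1.S1_at read 2.77, 2.34 and 2.75 on the EF arrays, 3.31, 3.95 and 3.86 on the PNP arrays, 2.27, 2.18 and 2.02 on the LE arrays, and 3.40, 2.62 and 2.83 on the whole-embryo arrays. Xl.9271.1.S1_x_at, which may also detect related transcripts, read 3.01, 2.12 and 2.78 on the EF arrays, 3.43, 3.54 and 4.18 on the PNP arrays, 2.10, 2.20 and 2.09 on the LE arrays, and 3.28, 2.18 and 2.71 on the whole-embryo arrays. Both had all PNP arrays above all EF and LE arrays. *hes5.5.S* was lower in EF relative to PNP by at least 2.07-fold and at least 1.96-fold (adjusted p = 0.00328 and 0.0172), with 2 of 3 EF arrays above the ceiling by each probe set, and the second call was lost without EF replicate 2 (adjusted p = 0.0710), without PNP replicate 3 (adjusted p = 0.0665) and without PNP replicate 3 and LE replicate 3 (adjusted p = 0.0846). It was at least 2.61-fold higher in PNP relative to LE by the first (adjusted p = 0.000201) and at least 2.63-fold by the second (adjusted p = 0.00141). Both probe sets passed in PNP against whole embryos (1.69-fold and 1.99-fold, adjusted p = 0.0275 and 0.0281), calls that were lost without any of 4 and any of 3 arrays. The first passed in LE against whole embryos as well (at least 1.54-fold lower in LE, adjusted p = 0.046), a call lost without any of 9 arrays.

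*hes5.10* is described in *Xenopus* as *esr-6e* and as a Notch target of the embryonic epidermis. Unlike *hes5.3*, *hes5.5* and *hes5.6*, it was not highest in PNP. Several other genes of its cluster had no member probe set. *hes5.10.L* (Xl.585.1.S1_at) read 4.08, 3.97 and 4.15 on the EF arrays, 5.19, 4.86 and 5.22 on the PNP arrays, 5.54, 5.60 and 4.79 on the LE arrays, and 6.19, 4.63 and 5.92 on the whole-embryo arrays. EF lay below every other array, whereas PNP, LE and whole embryos overlapped. *hes5.10.L* was 2.86-fold lower in EF relative to whole embryos (-1.52 ± 0.34, adjusted p = 0.00729) and 2.38-fold lower in EF relative to LE (adjusted p = 0.0166, lost without either of 2 arrays). It was 2.04-fold lower in EF relative to PNP (adjusted p = 0.0442), a call lost without any of 8 arrays. The 5 epidermal markers summed to 359 to 503 (EF), 31.2 to 43.0 (PNP), 4400 to 5376 (LE) and 4060 to 4574 (whole embryos). PNP had the lowest epidermal sum, and its *hes5.10.L* values lay inside the range of LE and whole embryos. The part of epidermis in the levels of *hes5.10.L* was not tested.

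The other 10 member probe sets were dim, with group means of 2.00 to 2.99, spans of 0.14 to 0.63 and signal above the ceiling on 1 to 11 arrays. They belong to *hey1.S* (3 probe sets), *nrarp.S*, *hes2.L*, *hes5.2.L*, *hes5.2.S*, *hes4.S* (2) and *hes5.5.S* (1). *nrarp*, a Notch target that feeds back on the pathway by limiting the receptor's active fragment, read 2.57, 2.61 and 2.67 on the EF arrays, 2.86, 3.02 and 3.09 on the PNP arrays, 2.64, 2.51 and 2.26 on the LE arrays, and 2.49, 2.40 and 2.93 on the whole-embryo arrays. *nrarp.S* was at least 1.39-fold higher in PNP relative to LE (adjusted p = 0.0276), a call lost without any of 4 arrays. Without both PNP replicate 3 and LE replicate 3, the log2 difference was 0.37 (adjusted p = 0.206).

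*hey1*, a Hey repressor of the notochord and vessels in vertebrates, was close to the background in each tissue. The probe set Xl.15880.2.S1_s_at of *hey1.S* passed in PNP against whole embryos (at least 1.28-fold higher, adjusted p = 0.0231) and in PNP against LE (at least 1.16-fold higher, adjusted p = 0.0142), and the first call was lost without any of 4 arrays and the second without any of 3. This probe set may also detect related transcripts. The other 2 *hey1.S* probe sets passed in no comparison. For Xl.15880.2.S1_at, 1 array decided the mean, with a signal of 3.53 on PNP replicate 2 and 1.93 to 2.20 on the other 11 arrays. *hes2*, a retinal glia gene in later *Xenopus* stages, and both copies of *hes5.2* passed in no comparison either. Of the 2 dim *hes4.S* probe sets, Xl.25977.2.S1_x_at passed in EF against LE (at least 1.27-fold higher, adjusted p = 0.0295, lost without any of 3 arrays) and in PNP against LE (at least 1.37-fold higher, adjusted p = 0.0112, lost without LE replicate 1). Where a dim probe set did not pass, that does not show that its tissues were alike.

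**Figure D3:**
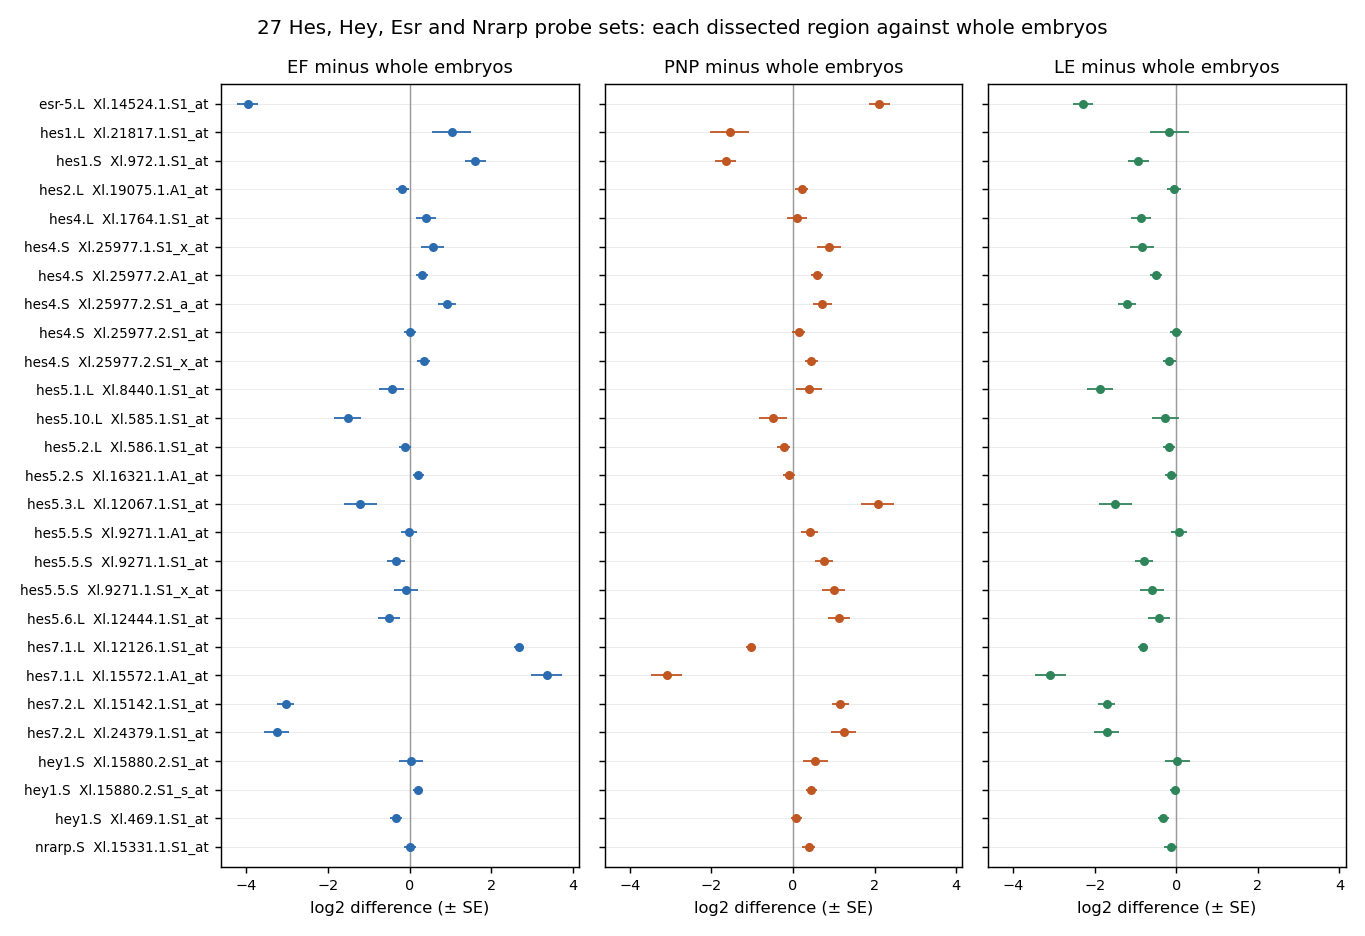
log2 difference ± SE (horizontal axis) of all 27 member probe sets (rows) for EF, PNP and LE, each minus whole embryos. The probe sets of *hes7.1* and *hes1* lie right of 0 in EF and left of 0 in PNP, those of *hes7.2* and *esr-5* the other way round, and in LE no probe set lies clearly right of 0.

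Across the whole family, the highest group mean fell in EF for 7, in PNP for 18, in LE for 0 and in whole embryos for 2 of the 27 member probe sets. PNP was the highest tissue for 66.7% of members and for 31.9% of all probe sets tested. LE was the lowest tissue for 13 members, 48.1% of them, and for 25.8% of all probe sets tested. These counts include the 10 dim probe sets, whose group means spanned only 0.14 to 0.63. The span of group means had a median of 1.55 over the members and 0.54 over all probe sets, and it reached 1 for 63.0% of members and 23.5% of all. Members of 1 gene share their target and are not independent, and the 7 probe sets of the 4 named genes are part of these counts, which are therefore a description.

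Against whole embryos, 4 member probe sets were higher in EF, where 8.83% of all probe sets tested were higher at an adjusted p under 0.05, and 4 were lower, where 10.6% of all were. Of these, 3 of the higher and 3 of the lower belonged to the 4 named genes, and the others were *hes4.S* and *hes5.10.L*. In PNP, 11 were higher and 4 lower than in whole embryos, with 10.2% and 12.1% of all probe sets. Of the 11, 8 belonged to other members (*hes4.S*, *hes5.3.L*, *hes5.5.S*, *hes5.6.L* and *hey1.S*), and the 4 lower ones were all *hes1* or *hes7.1*. The count of 11 was 5 without whole-embryo replicate 2 and 7 without PNP replicate 2 or whole-embryo replicate 3.

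In LE, 0 members were higher than in whole embryos and 10 were lower, with 3.23% and 5.40% of all probe sets. At an unadjusted p under 0.05, limma gave 0 higher, and the test named in the methods also gave 0. That test, adjusted, gave 0 lower as well, and 12 lower unadjusted. The 10 included 4 probe sets outside the named genes, those of *hes4.S*, *hes5.1.L*, *hes5.3.L* and *hes5.5.S*. Of the 10, *hes5.3.L* no longer passed without any of 7 single arrays and *hes5.5.S* without any of 9, and 7 passed with a replicate block. *hes1.S*, counted as a description, dropped out of the count without any of 9 single arrays. The median difference of LE and whole embryos was -0.49 over the members and 0.04 over all probe sets.

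Between regions, 4 members were higher in EF relative to PNP (13.8% of all probe sets) and 8 were lower (9.73% of all). The 4 were the probe sets of *hes1* and *hes7.1*, and outside the named genes 0 members were higher and 5 were lower. In EF against LE, 9 were higher and 4 lower (14.1% and 10.7% of all), and outside the named genes 6 and 1. In PNP against LE, 15 were higher and 1 was lower (13.0% and 12.6% of all), and outside the named genes these counts were 12 and 0. The median difference of PNP and LE was 0.52 over the members and 0.02 over all probe sets. The 3 comparisons with whole embryos share the whole-embryo arrays, and those between regions share the region arrays.

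Without PNP replicate 3 and LE replicate 3, 9 members were higher in PNP relative to whole embryos and 7 were lower in LE relative to whole embryos. The counts for PNP against LE were then 13 higher and 0 lower, and 6 were lower in EF relative to PNP. The lone member lower in PNP relative to LE, *hes1.L*, belongs to the named genes and is counted as a description. It dropped out of the count when any of 8 single arrays was left out.

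The pathway upstream of the Hes genes was followed with a list of 52 genes, of which 24 were measured. Against whole embryos, EF had 4 of them higher and 1 lower, PNP had 5 higher and 2 lower, and LE had 0 higher and 5 lower (for LE, limma gave 1 higher at an unadjusted p under 0.05, and the methods' test 0 adjusted and 1 unadjusted). Over all probe sets tested, the shares higher and lower were 8.83% and 10.6% for EF, 10.2% and 12.1% for PNP, and 3.23% and 5.40% for LE. In EF against PNP, 5 were higher and 2 lower, with 13.8% and 9.73% of all probe sets tested. EF and PNP each had 8 genes higher than LE and 0 lower. At an unadjusted p, limma gave 1 lower in EF and 0 in PNP, and the methods' test 0 and 1. Over all probe sets tested, 14.1% were higher and 10.7% lower in EF against LE, and 13.0% and 12.6% in PNP against LE.

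**Figure D4:**
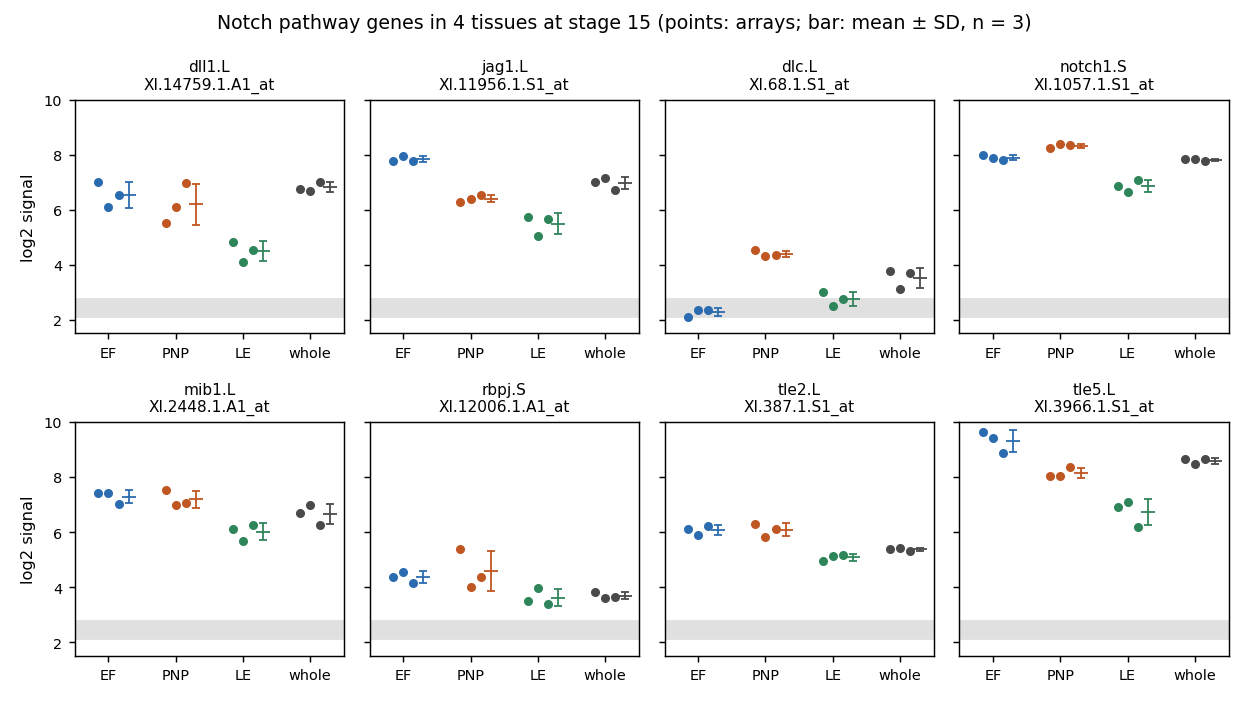
log2 signal (vertical axis) of 8 Notch pathway genes in EF, PNP, LE and whole embryos (“whole” on the horizontal axis), with 1 point per array, bars for mean ± SD (n = 3) and the background ceiling in grey. *dll1*, *notch1* and *tle5* are lowest in LE, *jag1* is highest in EF, and *dlc* is highest in PNP and at the background in EF.

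Among the ligands, *jag1.L* and *dlc.L* had opposite patterns in EF and PNP. *jag1.L*, a Jagged ligand, read 7.76, 7.96 and 7.78 on the EF arrays, 6.29, 6.38 and 6.53 on the PNP arrays, 5.74, 5.04 and 5.67 on the LE arrays, and 7.01, 7.15 and 6.72 on the whole-embryo arrays. Its tissues did not overlap. It was 2.70-fold higher in EF relative to PNP (adjusted p = 0.00011), 1.83-fold higher in EF relative to whole embryos (adjusted p = 0.0056) and 2.78-fold lower in LE relative to whole embryos (adjusted p = 0.00039).

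*dlc.L*, a Delta ligand that in zebrafish acts in the segmentation clock, read 2.12, 2.35 and 2.37 on the EF arrays, 4.52, 4.30 and 4.35 on the PNP arrays, 2.99, 2.48 and 2.75 on the LE arrays, and 3.75, 3.10 and 3.69 on the whole-embryo arrays. It followed the order PNP, whole embryos, LE, EF, that of *esr-5* and *hes7.2*, and its EF arrays were not above the ceiling. *dlc.L* was at least 3.88-fold lower in EF relative to PNP (adjusted p = 4.7e-06), 1.83-fold higher in PNP relative to whole embryos (adjusted p = 0.005) and 3.13-fold higher in PNP relative to LE (adjusted p = 2.8e-05).

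*dll1.L*, the main Delta ligand of neurogenesis, read 7.02, 6.08 and 6.51 on the EF arrays, 5.51, 6.11 and 6.98 on the PNP arrays, 4.82, 4.10 and 4.53 on the LE arrays, and 6.75, 6.68 and 7.02 on the whole-embryo arrays. EF, PNP and whole embryos overlapped, and LE lay below them. *dll1.L* was 4.16-fold higher in EF relative to LE (adjusted p = 0.00063), 3.29-fold higher in PNP relative to LE (adjusted p = 0.0022) and 5.04-fold lower in LE relative to whole embryos (adjusted p = 0.0011). The receptor *notch1.S* averaged 7.89 (EF), 8.31 (PNP), 6.86 (LE) and 7.82 (whole embryos). It was 2.74-fold higher in PNP relative to LE (adjusted p = 3.7e-06) and 1.95-fold lower in LE relative to whole embryos (adjusted p = 0.00075).

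Inside the cell, *mib1.L*, the ubiquitin ligase that lets ligands be taken up and signal, was 2.43-fold higher in EF relative to LE (adjusted p = 0.0011). *tle5.L*, a short Groucho relative, averaged 9.31 (EF), 8.14 (PNP), 6.74 (LE) and 8.59 (whole embryos). It was 2.25-fold higher in EF relative to PNP (adjusted p = 0.0035), 5.94-fold higher in EF relative to LE (adjusted p = 7.8e-06) and 3.60-fold lower in LE relative to whole embryos (adjusted p = 0.00054). The corepressor *tle2.L* was 1.62-fold higher in EF and 1.63-fold higher in PNP relative to whole embryos (adjusted p = 0.0052 and 0.0041). *rbpj.S*, the DNA-binding partner of cleaved Notch, was 1.86-fold higher in PNP relative to whole embryos (adjusted p = 0.044), a call lost without any of 10 arrays. With single arrays left out, its adjusted p was up to 0.119. Without PNP replicate 1 its difference was 0.49, against 0.89 with all arrays. *dtx4.L*, a Deltex ubiquitin ligase, was at least 2.02-fold higher in EF relative to PNP, where 1 of 3 arrays was above the ceiling (adjusted p = 0.00018).

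Proneural genes, which Hes repressors are known to hold down, and genes of neuronal differentiation were followed on the same list. Of 22 listed genes 15 were measured, and 4 of these (*atoh7*, *neurod4*, *nhlh1* and *tlx3*) were above the ceiling on no array. Of the 15, 1 was higher in EF relative to whole embryos, 1 was higher in PNP relative to whole embryos and 0 passed in LE against whole embryos (limma gave 1 higher and 3 lower at an unadjusted p under 0.05, and the methods' test 0 adjusted). Over all probe sets tested, the shares called higher were 8.83% for EF, 10.2% for PNP and 3.23% for LE, and that called lower was 5.40% for LE. Between regions, 2 of the 15 passed in EF against PNP and 4 in EF against LE, all of them higher in EF. Over all probe sets tested, 13.8% were higher and 9.73% lower in EF against PNP, and 14.1% and 10.7% in EF against LE. *tubb2b.S*, a tubulin of young neurons, was 3.80-fold higher in EF relative to PNP (adjusted p = 0.0025) and 4.74-fold higher in EF relative to LE (adjusted p = 0.00078). *ebf2.S*, a transcription factor of neuronal differentiation, was 2.28-fold higher in EF relative to PNP (adjusted p = 0.005) and 2.54-fold higher in EF relative to LE (adjusted p = 0.0021). In PNP against LE, *elavl3.L*, an RNA-binding protein of neurons, was the only one of the 15 to pass (1.72-fold higher in PNP, adjusted p = 0.0024). Of all probe sets tested, 13.0% were higher and 12.6% lower in that comparison.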

How the data were processed

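RNA of 12 samples was measured on Affymetrix *X. laevis* Genome arrays, 3 for whole embryos and 3 for each of the regions EF, PNP and LE. The authors summarised the scans by RMA in GeneSpring GX and deposited linear signal intensities, 1 column per array. The methods state a further normalization to whole embryos, and the deposited intensities do not include a division by whole embryos. Their floor is lower than RMA commonly leaves, so folds near the background depend on a step not given in the sources used here.

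Here the intensities were taken to log2 without offset or filter. Of 15611 probe sets, 120 controls were left out. Symbols came from the platform annotation (1 symbol for 9304 probe sets, several for 195, none for 5992), and the gene table served for names and gene order only. The 4 groups were fitted together in limma 3.58.1 (R 4.3.3; lmFit and eBayes), with Benjamini-Hochberg adjustment over 15491 probe sets and calls at an adjusted p under 0.05. A tissue not above the highest Bacillus control on every array gives a bound, for which each signal under the ceiling was set to it. The fit was tested on simulated data. Arrays give no depth, and 3 per group limit the precision.

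The members, gene lists and tests were chosen with earlier results of these data known. Named with every value were the probe sets of *hes1*, *hes7.1*, *hes7.2* and *esr-5* and all others above the ceiling on at least 1 array with group means at least 1 apart. For the Notch and neurogenesis lists, read from the brightest probe set per gene, at most 4 genes were named per comparison, those with the largest difference past the test. *hey1*, *nrarp* and the presomitic genes were named after their values were seen. Alternatives were a replicate block, a fit of 2 groups, an intensity trend, the methods' t-test, quantile normalization, median centring, an offset of 16, a filter on dim probe sets, a 2-fold limit, another choice of probe set and leaving out arrays. Replicate numbers were shared by the labels of the 4 groups, and nothing in the labels tied them to a shared day or female.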

Additional observations from a re-analysis of the deposited data

How the results depend on the processing

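For the 7 probe sets of the named genes and the 10 others spanning at least 1, no called difference changed sign under any alternative fit. Deviations of same-numbered arrays of different groups went both ways (correlation -0.172 to 0.208, median -0.0301, 18 pairs, the highest for PNP and LE replicate 3). Each such pair with an EF array was negative, and those among PNP, LE and whole embryos ran from -0.0345 to 0.208. Pairs of different numbers ran from -0.223 to 0.133. The numbers were not taken to pair the arrays, which does not show that no day or female was shared. With the replicate block, 7 Notch pathway genes in PNP against whole embryos became 4, the member lower in PNP relative to LE became 0, and 7 members were lower in LE relative to whole embryos. The methods' t-test, adjusted, gave fewer calls: 1 member higher in EF and 1 in PNP relative to whole embryos, 1 lower in PNP and 0 lower in LE relative to whole embryos, 5 lower in EF relative to PNP, 2 lower in EF relative to LE, and 9 higher and 2 lower in PNP relative to LE. For the Notch list it gave 1 gene in EF, 1 in PNP and 0 in LE against whole embryos, 4 in EF against PNP and 3 in PNP against LE, and for the neurogenesis list 0 in EF and 0 in PNP against whole embryos, 1 in EF against PNP and 0 in PNP against LE. Fits of only the 2 groups compared gave 7 members higher in PNP relative to whole embryos, 2 lower in PNP relative to LE, and 2, 0 and 1 neurogenesis genes in EF, PNP and LE against whole embryos. The intensity trend gave 1 neurogenesis gene in LE against whole embryos.

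A 2-fold limit left 5 members higher in PNP relative to whole embryos, 1, 0 and 3 Notch genes in EF, PNP and LE against whole embryos, 4 in EF against PNP and 5 each against LE, and 0 neurogenesis genes in EF or PNP against whole embryos, 2 in EF against LE and 0 in PNP against LE. An offset of 16 left 5 members lower in LE relative to whole embryos, 0 lower in PNP relative to LE and 0 neurogenesis genes in EF or PNP against whole embryos. Quantile normalization gave 2 members lower in PNP relative to LE and 2 neurogenesis genes each in EF and PNP against whole embryos. Median centring gave 0, 4 and 3 of these. The mean of all probe sets gave 9 Notch genes in EF and 2 neurogenesis genes in PNP against whole embryos. Without PNP replicate 3 and LE replicate 3 (chosen after seeing the data), 0 members were lower in PNP relative to LE, 4 Notch genes passed in EF against PNP, and 2 neurogenesis genes each in EF and PNP against whole embryos.

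Leaving out each array in turn gave 3 to 5 members higher and 4 to 5 lower in EF relative to whole embryos, 5 to 12 higher and 3 to 4 lower in PNP relative to whole embryos, 0 higher and 7 to 9 lower in LE relative to whole embryos, 4 higher and 6 to 10 lower in EF relative to PNP, 8 to 10 higher and 3 to 4 lower in EF relative to LE, and 13 to 16 higher and 0 to 2 lower in PNP relative to LE. The count of 11 higher in PNP relative to whole embryos was 5 without whole-embryo replicate 2 and 7 without PNP replicate 2 or whole-embryo replicate 3. The Notch list gave 4 to 7, 3 to 7 and 4 to 5 genes in EF, PNP and LE against whole embryos, 4 to 8 in EF against PNP, 7 to 9 in EF against LE and 7 to 8 in PNP against LE. Its 7 genes in PNP against whole embryos were 3 without PNP replicate 2 and 4 without whole-embryo replicate 1 or 3, and its 7 in EF against PNP were 4 without EF replicate 2, PNP replicate 2 or PNP replicate 3. The neurogenesis list gave 0 to 2, 1 to 2 and 0 to 1 against whole embryos, 2 to 3 in EF against PNP, 3 to 4 in EF against LE and 1 in PNP against LE. The cause of these changes was not tested.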

Other observations

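Id proteins are helix-loop-helix factors without a DNA-binding region that inhibit basic helix-loop-helix proteins, and 4 of 7 listed Id and related genes were measured. *id2.L* read 5.21, 5.72 and 5.98 on the EF arrays, 2.50, 2.42 and 2.43 on the PNP arrays, 7.40, 7.13 and 7.38 on the LE arrays, and 7.54, 8.01 and 7.32 on the whole-embryo arrays. PNP lay near the background ceiling, and EF between PNP and the other tissues. In PNP, 1 of 3 arrays was above the ceiling, and *id2.L* was at least 32.9-fold lower there relative to whole embryos (-5.17 ± 0.21, limma adjusted p = 4.2e-09), at least 26.4-fold lower in PNP relative to LE (adjusted p = 5.1e-09) and 3.97-fold lower in EF relative to whole embryos (adjusted p = 2.9e-05). LE and whole embryos overlapped (-0.32 ± 0.21).

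The other Id genes varied less. *id3* averaged 6.97 (EF), 6.55 (PNP), 6.28 (LE) and 6.75 (whole embryos), and passed only in EF against LE (1.61-fold higher, adjusted p = 0.0089). *id4.S* averaged 2.51 (EF), 2.54 (PNP), 2.37 (LE) and 3.05 (whole embryos), and was lower in each region than in whole embryos by at least 1.42-fold, 1.36-fold and 1.57-fold (adjusted p = 0.020, 0.022 and 0.012), calls that were lost without any of 3, any of 3 and 1 array. The 5 epidermal markers, which were lowest in PNP, stand beside the Hes values above, and their part in the *id2* levels was not tested.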
